A study of Mus musculus with 18 samples.

Results

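A set of 10 genes of protein folding in the endoplasmic reticulum (ER) was followed in single mouse oocytes. They were chosen by name, 10 of the 47069 Ensembl genes listed for each library, and all 10 could be matched. By role they were the chaperones Hspa5 and Hsp90b1, the lectins Calr and Canx, the disulfide isomerases Pdia3, Pdia4, Pdia6 and P4hb, and the transcription factors Xbp1 and Atf4. Each library was a SMART-seq2 profile, which copies polyadenylated RNA as full-length cDNA, of the supernatant left after an oocyte was lysed and its nucleus spun down. All animals were wild-type C57BL/6 mice of 6 weeks (6wk) or 12 months (12m). Both ages gave oocytes of the germinal vesicle stage (GV), in which meiosis has not yet resumed. Both also gave metaphase II oocytes from in vitro maturation, either without co-culture (IVM-MII) or with MSC co-culture (MSC-IVM-MII). The labels do not say what MSC stands for. The 6 groups held 3 oocytes each, 18 libraries in all. No animal or culture is named for any oocyte, so each group counted as 1 sample, no test was made, and ± gives the SD of 3 oocytes (n = 3). Oocyte numbers only name the libraries.

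The ER folds secreted and membrane proteins. Hspa5 encodes BiP, the Hsp70 of the ER lumen, and Hsp90b1 encodes GRP94, its Hsp90. Calreticulin (Calr) and calnexin (Canx) hold glycoproteins by their glycans, and the protein disulfide isomerases form and shuffle disulfide bonds, with Pdia3 working beside the lectins. When unfolded protein builds up, the sensors IRE1, PERK and ATF6 raise chaperone transcription: IRE1 splices Xbp1 mRNA, PERK lets Atf4 mRNA be translated, and ATF6 acts at ER stress elements in promoters. An oocyte secretes its zona pellucida while it grows and keeps stored mRNA for use during meiotic maturation, when transcription is silent.

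Levels are given as CPM, the level scaled to the library's filtered counts and its TMM factor, and a difference between 2 groups is the difference of their mean log2(CPM + 1). A difference of at least 1 in size is called past the limit here. CPM is a share of each library, and the amount of mRNA per oocyte was not measured. Comparisons of level between genes use the deposited TPM, which is per transcript length. Total counts ran from 1914072 to 9193559 per library. Of 15 oocyte marker genes at least 13 had counts in every library, with sums of 6921 to 74772 CPM. Of 26 cumulus and granulosa markers, 2 to 23 had counts per library, with sums of 77.6 to 2843 CPM, and Ptx3 was at 0 throughout. Of 18 mesenchymal markers, 1 to 12 had counts, with sums of 10.4 to 62.4 CPM, and Thy1, Eng, Nt5e and Cxcl12 were at 0 throughout. The blood and immune markers summed to at most 20.8 CPM.

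Some libraries stood apart. IVM-MII 6wk oocyte 1 and MSC-IVM-MII 6wk oocyte 1 share the title prefix Y01, while the other 4 metaphase II oocytes of that age carry Y03; the labels do not explain the prefixes. Mitochondrially encoded genes held 3.22% and 3.03% of their counts, against 6.04% to 14.9% in the other 10 metaphase II oocytes. Their oocyte markers summed to 46668 and 40606 CPM, within the GV range of 15900 to 74772 CPM and above the other metaphase II oocytes. Most of each sum was H1foo (20930 and 18950 CPM) and Gdf9 (17370 and 12660 CPM). Zp3 and Figla were low in their groups, with means of 80.4 and 188 CPM and of 0.0751 and 0.916 CPM. In GV 6wk oocytes these means were 9309 and 112 CPM. Granulosa markers summed to 1380 and 924 CPM in the 2 oocytes, mostly from Serpine2 (1294 and 836 CPM). GV 12m oocyte 3 had 23 of 26 granulosa markers with counts, summing to 2843 CPM, led by Inha (917 CPM) and Gja1 (674 CPM). The part these features play in the results was not tested, and values without such a library stand beside many of the differences. None of the 5 prefixes is found at both ages, so age and prefix cannot be told apart.

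In the annotation used (GENCODE M21, GRCm38) the chaperone genes were Hspa5 (ENSMUSG00000026864, chr2:34771970-34777547) and Hsp90b1 (ENSMUSG00000020048, chr10:86690209-86705509). The lectin genes were Calr (ENSMUSG00000003814, chr8:84841850-84846934) and Canx (ENSMUSG00000020368, chr11:50293961-50325673). The isomerase genes were Pdia3 (ENSMUSG00000027248, chr2:121413775-121438687), Pdia4 (ENSMUSG00000025823, chr6:47796141-47813430), Pdia6 (ENSMUSG00000020571, chr12:17266545-17284770) and P4hb (ENSMUSG00000025130, chr11:120560298-120573253). Xbp1 (ENSMUSG00000020484) lies at chr11:5520659-5525893 and Atf4 (ENSMUSG00000042406) at chr15:80255184-80257541. All are protein-coding.

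The promoters show which of these genes hold an exact match to the ER stress element, the DNA motif through which ATF6 acts. RefSeq promoters (GRCm38.p6, 250 bases before to 50 after the annotated start; 10 of 10 genes matched) were searched on both strands for the element, CCAAT and CCACG parted by 9 bases of any kind, and for each of these parts alone. The element was found in 5 of the 10 promoters and in 39 of all 32851 promoters of this length (0.119%). The 5 are shown because they hold it, 5′ to 3′ on the strand of the gene, with the element in capitals. The first 4 are stretches upstream of the start outside annotated exons, and for Hspa5 only the element and 5 bases on each side are shown.
Hsp90b1, chr10:86705510-86705694, minus strand: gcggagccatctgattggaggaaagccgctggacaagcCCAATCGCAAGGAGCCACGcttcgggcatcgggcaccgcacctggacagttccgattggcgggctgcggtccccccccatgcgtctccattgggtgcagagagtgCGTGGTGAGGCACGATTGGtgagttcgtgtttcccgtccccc
Canx, chr11:50325674-50325923, minus strand: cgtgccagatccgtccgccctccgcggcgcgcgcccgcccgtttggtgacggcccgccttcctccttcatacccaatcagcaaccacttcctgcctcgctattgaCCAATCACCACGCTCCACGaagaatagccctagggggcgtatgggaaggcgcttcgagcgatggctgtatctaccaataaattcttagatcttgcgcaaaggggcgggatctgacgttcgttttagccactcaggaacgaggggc
Calr, chr8:84846935-84847181, minus strand: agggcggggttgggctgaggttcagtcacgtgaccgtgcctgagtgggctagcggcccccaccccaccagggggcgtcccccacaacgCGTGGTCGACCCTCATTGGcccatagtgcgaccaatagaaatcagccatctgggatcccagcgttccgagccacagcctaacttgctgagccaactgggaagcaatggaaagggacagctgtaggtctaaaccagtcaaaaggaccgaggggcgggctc
Pdia6, chr12:17266339-17266544, plus strand: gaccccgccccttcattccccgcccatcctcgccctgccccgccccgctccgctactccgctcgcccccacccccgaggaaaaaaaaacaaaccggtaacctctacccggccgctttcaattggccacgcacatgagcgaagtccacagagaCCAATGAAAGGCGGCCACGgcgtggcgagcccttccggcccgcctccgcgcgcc
Hspa5, chr2:34772020-34772048, plus strand: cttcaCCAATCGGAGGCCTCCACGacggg
Counted from the start, the element spans bases −65 to −47 in Hspa5, −98 to −80 in Pdia6 and −145 to −127 in Canx. In Calr it lies on the opposite strand at −162 to −144. Hsp90b1 holds it on the same strand at −212 to −194 and on the opposite strand at −107 to −89. The letters were not found in the windows of Pdia3, Pdia4, P4hb, Xbp1 and Atf4. CCAAT alone occurred in 37.4% and CCACG alone in 32.8% of all promoters. The core of the unfolded protein response element, TGACGTGG (0.676% of all promoters), and the ATF4 composite element TGATGNAA (3.97%) were found in 0 of the 10 windows. A match describes letters only and says nothing of a factor's binding. An inexact element, or one outside the window, would be missed.

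**Figure D1:**
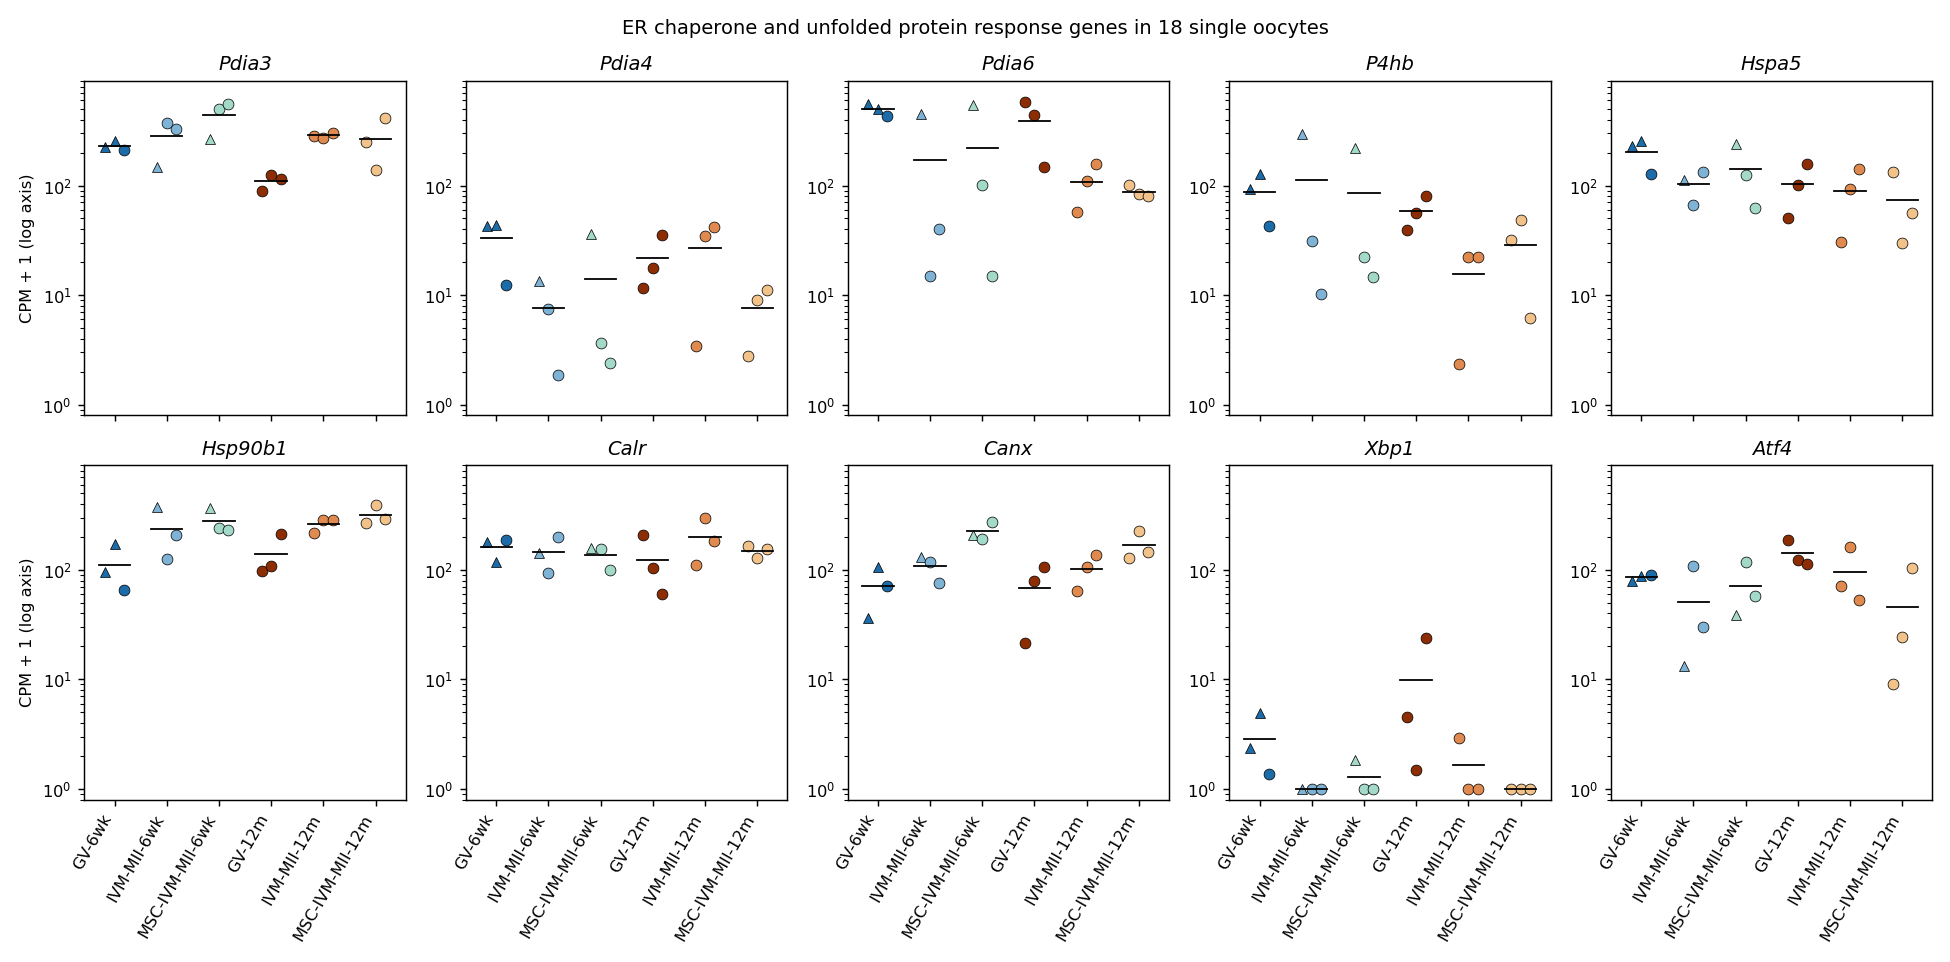
Level of each gene in each of the 18 oocytes (y axis, CPM + 1 on a log scale; x axis, the 6 groups). Points are oocytes, triangles mark title prefix Y01 and bars are group means of CPM; Hsp90b1, Canx and Pdia3 sit higher and Pdia6 lower in most metaphase II oocytes, while the 2 metaphase II triangles keep Pdia6 at 454 and 548 CPM.

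The first question was how these transcripts differ between GV oocytes and oocytes matured in vitro. Of the 12 metaphase II oocytes, 10 were above the highest GV oocyte for Hsp90b1, 9 for Canx and 9 for Pdia3. Below the lowest GV oocyte were 9 for Pdia6, 9 for P4hb, 8 for Pdia4, 8 for Atf4 and 10 for Xbp1, while Hspa5 and Calr mostly stayed within the GV range. At 6wk, 4 of 10 genes were lower past the limit in IVM-MII than in GV oocytes (39.3% of the 12037 measured genes) and 1 was higher (16.7% of measured genes). At 12m, 3 were lower (39.0%) and 1 higher (16.1%). With co-culture, 3 were lower (35.2%) and 2 higher (21.4%) at 6wk, and 5 were lower (41.7%) and 3 higher (16.7%) at 12m. Each count of lower genes includes Xbp1, which passed the filter on low counts through GV oocytes alone, of both ages. Its place among the lower genes was thus fixed in part by the filter. Without Xbp1 the lower genes were 3 and 2, and 2 and 4 with co-culture. The comparisons with and without co-culture share their GV oocytes. The median difference of the 10 genes was −0.89 at 6wk and −0.26 at 12m, beside −0.52 and −0.52 over all measured genes. With co-culture it was −0.53 and −1.01, beside −0.29 and −0.60. These medians of the 10 include Xbp1, with its limit of the filter. Without Xbp1 the middle value was that of P4hb (−0.81) at 6wk and of Pdia4 (−0.19) at 12m. With co-culture it was that of Atf4 (−0.41) and of Hspa5 (−0.61).

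The number of genes without overlap between the oocytes of 2 groups differed by comparison. Between GV and IVM-MII at 6wk the oocytes did not overlap for Xbp1 alone, lower (29.2% of measured genes were lower and 9.59% higher without overlap). Xbp1 had the limit of the filter given above, and its GV counts were 5, 16 and 1, against 0 in IVM-MII oocytes. At 12m the absence of overlap held for Hsp90b1 and Pdia3, higher (11.3%), and P4hb, lower (26.2%). In co-cultured oocytes it held for Canx, Hsp90b1 and Pdia3, higher, at both ages (14.2% at 6wk and 10.9% at 12m). At 12m it also held for Pdia4, Pdia6 and Atf4, lower (28.5%), and for Xbp1, with the same limit of the filter. In that comparison 4 of the 10 genes were thus lower and 3 higher without overlap, Xbp1 among the lower.

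**Figure D2:**
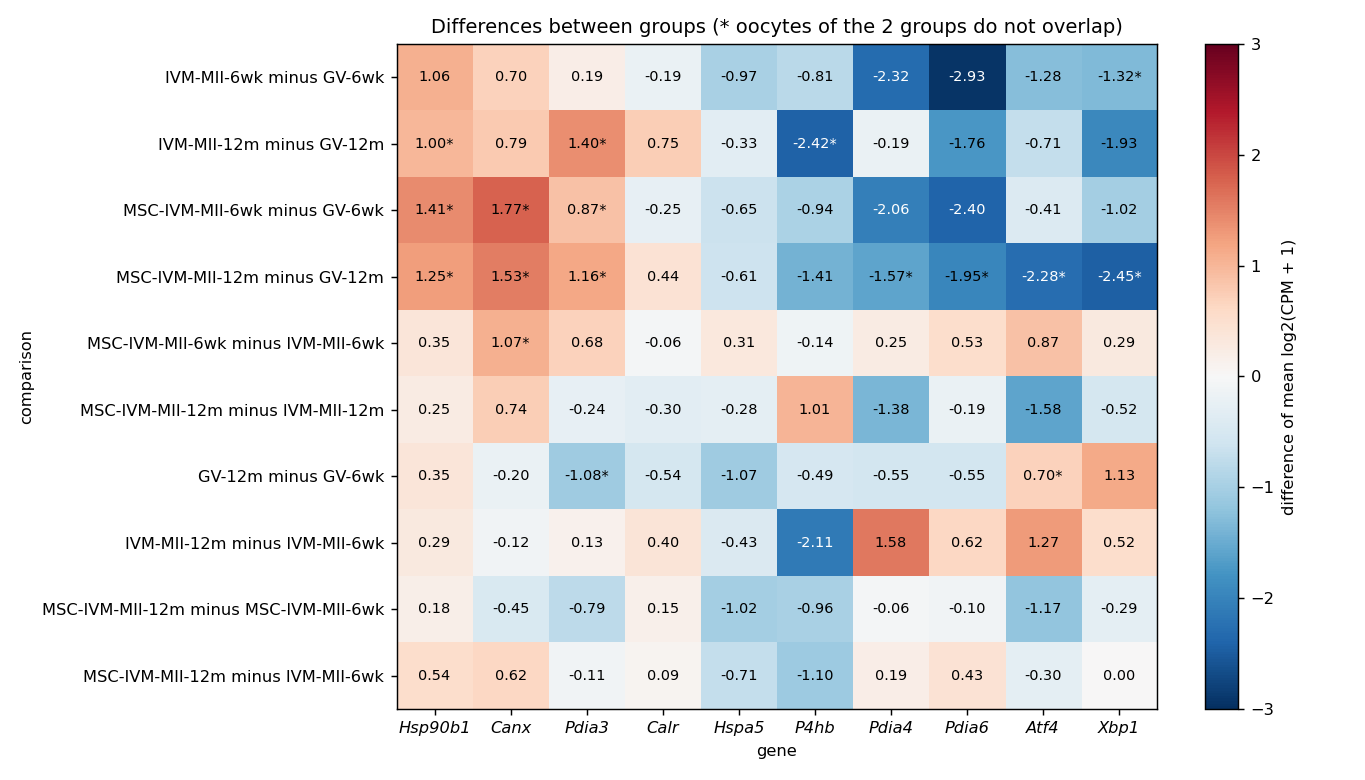
Difference of mean log2(CPM + 1) for each gene (columns) in each of the 10 comparisons (rows), red where the group named first is higher. Stars mark pairs of groups whose oocytes do not overlap; Hsp90b1 and Canx are above 0 and Pdia6 below 0 in all 4 comparisons with GV oocytes.

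Hsp90b1, the ER Hsp90, was higher in most metaphase II oocytes. Its GV levels were 95.2, 170.0 and 64.9 CPM at 6wk and 96.5, 108 and 211 CPM at 12m. In IVM-MII oocytes it stood at 373, 125 and 209 CPM at 6wk and at 217, 288 and 285 CPM at 12m. In co-cultured oocytes it stood at 367, 239 and 231 CPM at 6wk and at 266, 388 and 289 CPM at 12m. Of the 12 metaphase II oocytes 10 were above the highest GV oocyte, and both exceptions were IVM-MII 6wk oocytes of prefix Y03. The difference was 1.06 at 6wk and 1.00 at 12m, the second just under the limit before rounding, and 1.41 and 1.25 with co-culture. At 6wk it was 0.66 without IVM-MII oocyte 1, of prefix Y01, and 0.74 without GV oocyte 3. Within prefixes it was 1.54 in Y01 and 1.30 in Y03. The 12m difference was 1.20 within O04. Within O05, with 1 oocyte a group, it was 0.43, where the GV oocyte was the one rich in granulosa markers.

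Hspa5, the ER Hsp70, did not follow Hsp90b1. It stood at 227, 252 and 126 CPM in GV 6wk oocytes and at 49.0, 100.8 and 156 CPM in GV 12m oocytes. In metaphase II oocytes it ran from 28.7 to 239 CPM with a median of 101.4 CPM, and 10 of 12 lay within the GV range. No comparison with GV oocytes passed the limit: the differences were −0.97 at 6wk and −0.33 at 12m, and −0.65 and −0.61 with co-culture. Single oocytes moved them: without GV 6wk oocyte 3 the first was −1.27, and without IVM-MII 12m oocyte 1 the second was 0.31. With co-culture the 6wk value was −1.13 without oocyte 1, of prefix Y01, and −0.16 without oocyte 3, and the 12m value −1.18 without oocyte 1 and −0.095 without oocyte 2. Per transcript length the balance of the pair differed by stage, a contrast chosen after the values were seen. The ratio of Hsp90b1 to Hspa5 TPM was above 1 in 12 of 12 metaphase II oocytes, from 1.32 to 12.7. In GV oocytes it was 0.397, 0.583 and 0.439 at 6wk and 1.85, 0.987 and 1.25 at 12m, so GV 12m overlapped the metaphase II oocytes and GV 6wk did not. Such a ratio within a library does not depend on the scaling between libraries.

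Canx, the membrane-bound lectin, had its highest group means with co-culture. GV oocytes held 35.2, 104.8 and 70.9 CPM at 6wk and 20.5, 78.2 and 105.1 CPM at 12m. IVM-MII oocytes held 131, 116 and 75.4 CPM at 6wk and 63.3, 104.999 and 135 CPM at 12m. Co-cultured oocytes held 207, 189.9 and 274 CPM at 6wk and 129, 227 and 146 CPM at 12m. All 6 co-cultured oocytes and 3 of the 6 IVM-MII oocytes were above the highest GV oocyte. The difference from GV was 0.70 and 0.79 without co-culture and 1.77 and 1.53 with it, at 6wk and 12m. The values without co-culture rested on single GV oocytes: 0.70 was 0.28 without GV 6wk oocyte 1 and 1.05 without oocyte 2. The 12m value of 0.79 was 0.089 without GV oocyte 1, which had 92 Canx counts, 1.24 without oocyte 3, rich in granulosa markers, and 0.21 within title prefixes. With co-culture at 12m it was 0.83 without GV oocyte 1 and 0.75 within title prefixes.

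Calr, the soluble lectin, had overlapping levels at both stages. It ran from 59.1 to 207 CPM in GV oocytes, median 149 CPM, and from 92.6 to 299 CPM in metaphase II oocytes, median 153 CPM. Its differences from GV were −0.19 and 0.75 without and −0.25 and 0.44 with co-culture, and none passed the limit. The 12m value of 0.75 was 1.21 without GV oocyte 1, 1.21 within title prefixes and 0.31 without GV oocyte 3, and 0.44 was 0.0091 without GV oocyte 3. The sign at 6wk depended on scaling, since TPM gave 0.19 without co-culture and 0.01 with it, and scaling without the low-count filter gave 0.02 without co-culture. The annotation lists a processed pseudogene, Calr-ps, on chromosome 2, and reads shared with it may have been split. Per transcript length Calr was above Canx in every library, with a Canx to Calr TPM ratio of 0.112 to 0.382 in IVM-MII and 0.344 to 0.947 in co-cultured oocytes. These ratios overlapped in 1 IVM-MII and 1 co-cultured library and also with those of GV oocytes, 0.0731 to 0.607.

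Pdia6, a disulfide isomerase that works with BiP, was the most abundant of the 10 per transcript length in 5 of 6 GV oocytes. It stood at 552, 501.3 and 433 CPM in GV 6wk oocytes and at 583, 440.3 and 147 CPM in GV 12m oocytes. In IVM-MII 6wk oocytes it stood at 454, 14.0 and 38.8 CPM and in co-cultured ones at 548, 99.6 and 13.8 CPM. At 12m the IVM-MII oocytes held 56.7, 109 and 156 CPM and the co-cultured ones 99.1, 82.5 and 78.4 CPM. The 2 metaphase II oocytes of prefix Y01 were thus at GV levels, and 9 of the other 10 were below the lowest GV oocyte. That lowest GV oocyte was GV 12m oocyte 3, and the tenth, at 156 CPM, was just above it. The difference from GV was −2.93 at 6wk and −1.76 at 12m, and −2.40 and −1.95 with co-culture. It was −4.34 at 6wk without IVM-MII oocyte 1, of prefix Y01, and −1.88 without oocyte 2, and with co-culture −3.68 without oocyte 1 and −1.07 without oocyte 3. At 12m it was −2.35 without GV oocyte 3, and −2.54 with co-culture. Within Y01 it was −0.21 and within Y03 −4.15 at 6wk, and at 12m −2.47 within O04 and 0.08 within O05. The 2 oocytes of prefix Y01 also had the lowest mitochondrial shares of the metaphase II libraries, and no cause was tested.

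Pdia3, the isomerase that partners Canx and Calr, stood the other way. GV oocytes held 221, 254 and 211 CPM at 6wk and 88.9, 123 and 114 CPM at 12m. IVM-MII oocytes held 146, 370.2 and 329 CPM at 6wk and 285, 272 and 302 CPM at 12m. Co-cultured oocytes held 265, 500.7 and 554 CPM at 6wk and 250.3, 137 and 411 CPM at 12m. At 12m every IVM-MII and co-cultured oocyte was above the 3 GV oocytes, with differences of 1.40 and 1.16. At 6wk IVM-MII and GV oocytes overlapped and the difference was 0.19, which was 0.61 without IVM-MII oocyte 1 and −0.06 without oocyte 2. With co-culture at 6wk it was 0.87, just under the limit and without overlap. At 12m with co-culture it was 0.78 without oocyte 3.

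The order of Pdia6 and Pdia3 was the opposite in most metaphase II libraries, a contrast also chosen after the values were seen. The Pdia6 to Pdia3 TPM ratio was 2.58 to 3.18 in GV 6wk and 1.72 to 8.61 in GV 12m oocytes. It was 0.0327 to 0.792 in the 10 metaphase II oocytes of other prefixes, below 1 in 10 of 10. In the 2 of prefix Y01 it was 4.08 and 2.71, as in GV oocytes.

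P4hb, the classic protein disulfide isomerase and a subunit of prolyl 4-hydroxylase, had its highest and lowest levels among metaphase II oocytes. It stood at 91.4, 126 and 41.5 CPM in GV 6wk oocytes and at 38.5, 55.1 and 79.1 CPM in GV 12m oocytes. The 2 metaphase II oocytes of prefix Y01 held 296 and 218 CPM, above every other library. The other 10 held 1.33 to 47.2 CPM with a median of 21.1 CPM, and 9 of them were below the lowest GV oocyte. The difference from GV was −0.81 at 6wk and −2.42 at 12m, and −0.94 and −1.41 with co-culture. The 6wk value was −2.16 without IVM-MII oocyte 1 and 0.27 without oocyte 3, and within prefixes it was 1.46 in Y01 and −1.27 in Y03. The 12m value was −1.34 without IVM-MII oocyte 1, whose P4hb level rested on 11 counts, and with co-culture −0.52 without oocyte 3. With co-culture at 6wk it was −2.15 without oocyte 1, of prefix Y01, −0.19 without oocyte 3 and −0.11 within title prefixes.

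Pdia4, an isomerase with an extra catalytic domain, did not exceed 42.6 CPM in any library. It stood at 41.9, 42.6 and 11.4 CPM in GV 6wk oocytes and at 10.7, 16.7 and 34.7 CPM in GV 12m oocytes. IVM-MII oocytes held 12.4, 6.52 and 0.856 CPM at 6wk and 2.42, 33.5 and 41.0 CPM at 12m. Co-cultured oocytes held 35.3, 2.67 and 1.38 CPM at 6wk and 1.78, 8.05 and 10.1 CPM at 12m. The metaphase II oocytes lay both within and below the GV range, and 8 of 12 were below its lowest value. The difference from GV was −2.32 at 6wk and −0.19 at 12m, and −2.06 and −1.57 with co-culture. The 12m value was 0.97 without IVM-MII oocyte 1, −0.84 without oocyte 3 and 0.24 without GV oocyte 3. The 6wk value was −1.50 without IVM-MII oocyte 3, and with co-culture −3.27 without 6wk oocyte 1, −1.30 without 6wk oocyte 3 and −0.96 without 12m oocyte 1. Several of these levels rest on few reads: 3 counts in IVM-MII 6wk oocyte 3, and 4 each in MSC-IVM-MII 6wk oocyte 3 and MSC-IVM-MII 12m oocyte 1.

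Xbp1, whose spliced mRNA encodes a transcription factor for ER genes, was near the floor of detection. Summed over 3 oocytes it had 22 counts in GV 6wk (exact Poisson 95% interval 13.8 to 33.3, which covers counting error only) and 171 in GV 12m (146 to 199). Of the 171 counts, 151 came from GV 12m oocyte 3, the library rich in granulosa markers, and the other 2 oocytes had 16 and 4. In metaphase II oocytes the sums were 0 and 16 counts in IVM-MII at 6wk and 12m, and 4 and 0 counts in co-cultured oocytes. A sum of 0 allows up to 3.69 counts, and 10 of 12 metaphase II libraries had none. Xbp1 passed the filter on low counts through GV oocytes alone (12m oocytes 1 and 3 and 6wk oocyte 2). Its lower value after maturation was therefore fixed in part by the filter at both ages. The difference from GV was −1.32 and −1.93, and −1.02 and −2.45 with co-culture. These values depend on the pseudocount: the first was −3.79 with a pseudocount of 0.1 and −0.42 with 5. At 12m it was −0.87 without GV oocyte 3, and −1.39 with co-culture; at 6wk it was −0.83 without GV oocyte 2. The deposited values are per gene, so the spliced form was not analysed here.

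Atf4, the effector of PERK, varied little among GV 6wk oocytes and widely among metaphase II oocytes. It stood at 79.0, 86.1 and 89.0 CPM in GV 6wk oocytes and at 188, 123 and 113 CPM in GV 12m oocytes. IVM-MII oocytes held 12.4, 108 and 28.8 CPM at 6wk and 69.6, 162 and 52.7 CPM at 12m. Co-cultured oocytes held 37.8, 118 and 56.6 CPM at 6wk and 8.03, 23.6 and 103.3 CPM at 12m. Of 12 metaphase II oocytes 8 were below the lowest GV oocyte. The difference from GV was −1.28 at 6wk and −0.71 at 12m, and −0.41 and −2.28 with co-culture. It was −0.59 at 6wk without IVM-MII oocyte 1, −2.10 without oocyte 2, and −1.45 at 12m with co-culture without oocyte 1, whose level rested on 18 counts.

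The 5 genes with an exact match to the ER stress element differed from GV in both directions. At 6wk their differences ran from −2.93 (Pdia6) to 1.06 (Hsp90b1), and at 12m from −1.76 (Pdia6) to 1.00 (Hsp90b1), with medians of −0.19 and 0.75. Those without a match in the window ran from −2.32 to 0.19 and from −2.42 to 1.40, with medians of −1.28 and −0.71. Xbp1 (−1.32 and −1.93) is among those without a match, so their medians were fixed in part by the filter. Genes with and without a match were not tested against each other. Of the 37 genes with the element in a promoter, 21 were measured, 16 of them outside the 10 genes. At 6wk 6 of the 16 were lower and 3 higher past the limit (39.3% and 16.7% of all measured genes), and at 12m 3 were lower and 2 higher (39.0% and 16.1%), with medians of −0.70 and −0.43. Among them Derl3, a factor of ER-associated degradation, had differences of −5.05 and −2.37, and Dnajc3, a BiP co-chaperone and PERK inhibitor, 1.52 and 1.54.

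**Figure D3:**
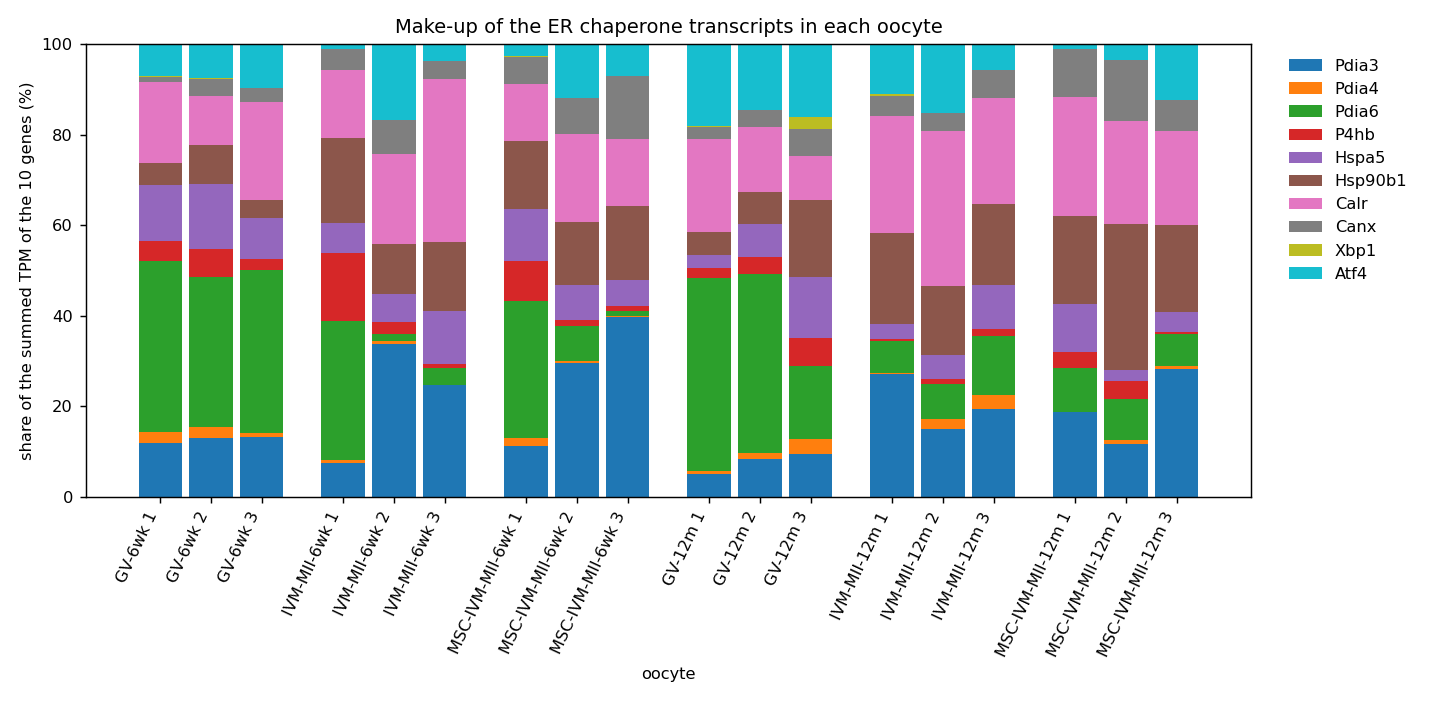
Share of each gene in the summed TPM of the 10 genes (y axis, percent) for each of the 18 oocytes (x axis). Pdia6 takes a median of 36.7% in GV oocytes and 7.80% in metaphase II oocytes, where the first bar of IVM-MII 6wk and of MSC-IVM-MII 6wk keep a large Pdia6 part.

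The 10 transcripts together held a similar part of GV and metaphase II libraries, but in other proportions. Their summed level was 1043 to 1657 CPM in GV oocytes, median 1260.3 CPM, and 836 to 2075 CPM in metaphase II oocytes, median 1277 CPM. By age the medians parted: at 6wk they were 1524 CPM in GV, 1024 in IVM-MII and 1449 in co-cultured oocytes. At 12m they were 1150, 1318 and 1082 CPM. Within the sum of their TPM, Pdia6 had a median share of 36.7% in GV oocytes (16.1% to 42.7%) and 7.80% in metaphase II oocytes (1.30% to 30.5%). Pdia3 had 10.6% and 22.0%, Hsp90b1 6.25% and 17.1%, Calr 16.0% and 21.6%, and Canx 3.47% and 6.61%. In GV oocytes the first place went to Pdia6 in 5 libraries and to Hsp90b1 in GV 12m oocyte 3. In metaphase II oocytes it went to Pdia3 in 5, Calr in 4, Pdia6 in the 2 of prefix Y01, and Hsp90b1 in 1. Hspa5 was at a median share of 10.7% and 6.40%, P4hb at 4.11% and 1.35%, Atf4 at 12.1% and 6.39%, and Pdia4 at 1.93% and 0.721%. The assigned transcript length of Canx was 1277 bases in GV 12m oocyte 1, 2491 bases in MSC-IVM-MII 12m oocyte 1 and 3779 to 3881 bases elsewhere, and a shorter length raises TPM relative to CPM.

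The second question was whether co-culture during maturation goes with other levels of these genes. At 6wk, 1 of 10 genes was past the limit, Canx, higher in MSC-IVM-MII (16.2% of measured genes were higher and 5.22% lower). It was at 224 ± 44.6 CPM with and 108 ± 28.8 CPM without co-culture, a difference of 1.07, and its oocytes did not overlap (3.86% of measured genes were higher and 1.51% lower without overlap). The difference was 0.65 within Y01, with 1 oocyte a group, and 1.28 within Y03. It was under the limit without IVM-MII oocyte 3 (0.83) and without MSC-IVM-MII oocyte 3 (0.91). At 12m Canx was at 167 ± 52.4 CPM with and 101.1 ± 36.0 CPM without co-culture, a difference of 0.74, and the groups overlapped in that 129 CPM with co-culture lay below 135 CPM without.

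At 12m, 2 genes were lower with co-culture (15.2% of measured genes) and 1 was higher (10.3%), and none of the 10 was free of overlap (2.63% higher and 3.99% lower among measured genes). Atf4 was at 45.0 ± 51.1 CPM with and 94.7 ± 58.7 CPM without co-culture, a difference of −1.58, which was −0.75 without MSC-IVM-MII oocyte 1 and −2.51 without oocyte 3. Pdia4 was at 6.64 ± 4.33 against 25.6 ± 20.4 CPM, a difference of −1.38, which ran from −2.54 without IVM-MII oocyte 1 to −0.73 without oocyte 3. P4hb was at 27.7 ± 21.2 against 14.6 ± 11.5 CPM, a difference of 1.01, which became −0.075 without IVM-MII oocyte 1. The other genes had differences of −0.14 to 0.87 at 6wk and of −0.52 to 0.74 at 12m. At 6wk, leaving out either oocyte of prefix Y01 brought the count of higher genes from 1 to 3. Of the 12037 measured genes, 3245 were then higher without IVM-MII oocyte 1 and 1824 without MSC-IVM-MII oocyte 1. Among the 10 only Canx was higher both times. P4hb was lower past the limit without MSC-IVM-MII oocyte 1, as were 1223 of the measured genes. Within Y03, where neither oocyte of prefix Y01 is included, Canx alone was past the limit (1.28). There 2705 measured genes were higher and 1309 lower. The median of the 10 was 0.33 at 6wk and −0.26 at 12m, beside 0.20 and −0.10 over all genes. Mesenchymal markers summed to 10.6 to 34.5 CPM without and 10.4 to 42.4 CPM with co-culture.

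The third question was whether oocytes of the older mice differ. In GV oocytes 2 genes were lower past the limit at 12m (4.28% of measured genes) and 1 was higher (9.46%). Of the 10, 2 had no overlap, Pdia3, lower (3.51%), and Atf4, higher (3.67%). Pdia3 was at 109 ± 17.8 CPM at 12m and 229 ± 22.1 CPM at 6wk, a difference of −1.08 that was −0.94 without GV 12m oocyte 1. Atf4 was at 141 ± 40.5 against 84.7 ± 5.15 CPM, a difference of 0.70. Hspa5 was at 102.1 ± 53.7 against 202 ± 66.5 CPM, a difference of −1.07 that was −0.62 without GV 12m oocyte 1. The 1 higher gene was Xbp1, which passed the filter through GV 12m oocytes 1 and 3 and GV 6wk oocyte 2. That count was thus fixed in part by the filter and says nothing of the 10 genes. The Xbp1 difference of 1.13 was 0.07 without GV 12m oocyte 3. The median of the 10 was −0.52, beside 0.12 over all genes. Here the split of all genes past the limit moved with the unit: 68.9% of them were higher at 12m by CPM, 43.9% by TPM and 50.1% with a pseudocount of 5.

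In IVM-MII oocytes 1 gene was lower past the limit at 12m (9.08%) and 2 were higher (18.1%), none without overlap (2.37% lower and 6.24% higher). P4hb was at 14.6 ± 11.5 CPM at 12m and 112 ± 160.2 CPM at 6wk, a difference of −2.11, and −0.75 without IVM-MII 6wk oocyte 1. Pdia4 was at 25.6 ± 20.4 against 6.59 ± 5.77 CPM, a difference of 1.58, and 0.76 without IVM-MII 6wk oocyte 3. Atf4 was at 94.7 ± 58.7 against 49.8 ± 51.2 CPM, a difference of 1.27, and 0.58 without IVM-MII 6wk oocyte 1. Of all genes past the limit 66.5% were higher at 12m by CPM and 52.5% by TPM. In co-cultured oocytes 2 genes were lower (15.2%) and 0 higher (7.73%), again with overlap (4.85% lower and 2.94% higher). They were Atf4, with a difference of −1.17 that was −0.34 without MSC-IVM-MII 12m oocyte 1, and Hspa5, with −1.02 that was −0.51 without oocyte 2. Without MSC-IVM-MII 6wk oocyte 1, of prefix Y01, 2 genes were higher, Pdia6 (1.18) and Pdia4 (1.14), and Hspa5 was at −0.54. Of the 12037 measured genes, 1649 were higher and 1844 lower without that oocyte. Between co-cultured 12m and plain 6wk metaphase II oocytes 1 gene was lower past the limit (11.1%) and 0 higher (14.9%), none without overlap (2.82% lower and 3.56% higher). It was P4hb, with −1.10, which became 0.26 without IVM-MII 6wk oocyte 1.

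**Figure D4:**
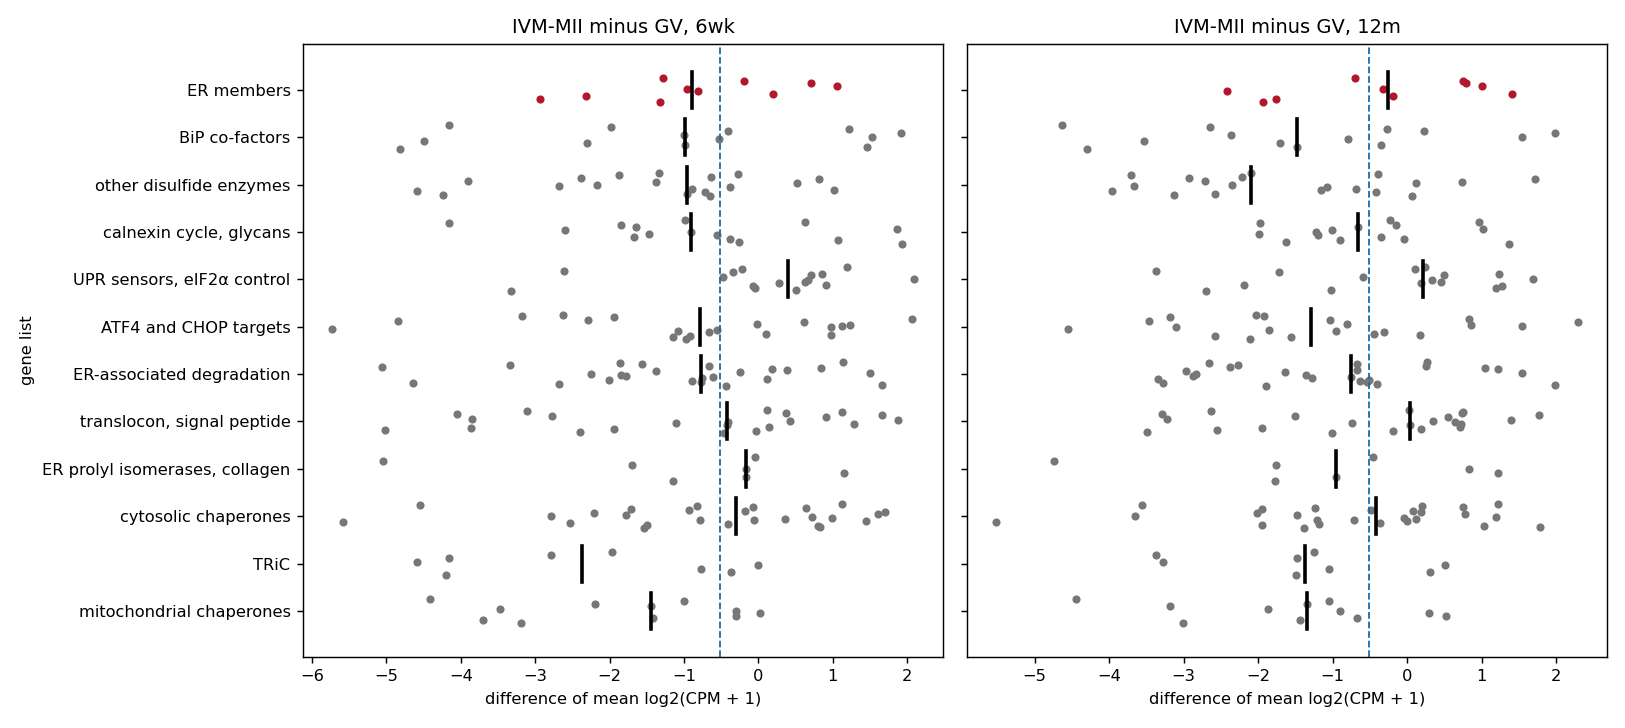
Difference of mean log2(CPM + 1) (x axis) for every measured gene of each list (y axis), IVM-MII minus GV, at 6wk (left) and 12m (right). Points are genes, black bars the list medians, and the dashed line the median of all measured genes, −0.52 at both ages; the 10 genes are in red.

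The rest of the ER folding pathway was described by 8 lists of 160 further genes, of which 137 were measured. At 6wk, 54 of 137 were lower past the limit in IVM-MII than in GV oocytes and 21 were higher. At 12m, 64 were lower and 18 higher. With co-culture, 57 and 66 were lower and 26 and 17 higher at the 2 ages. Among all measured genes 35.2% and 41.7% were lower there and 21.4% and 16.7% higher. The median difference of the 137 was −0.64 at 6wk and −0.80 at 12m. Of all measured genes, 39.3% were lower and 16.7% higher at 6wk, and 39.0% and 16.1% at 12m.

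Among 13 measured BiP cofactors, 6 were lower past the limit and 4 higher at 6wk (39.3% and 16.7% of all measured genes). At 12m 7 were lower and 2 higher (39.0% and 16.1%). Sil1, the nucleotide exchange factor of BiP, was at 8.50 ± 7.88 CPM in IVM-MII and 210.4 ± 85.9 CPM in GV oocytes at 6wk. Manf, an ER-resident trophic factor, was at 9.15 ± 6.67 against 206 ± 58.2 CPM. Dnajc1, a membrane J-domain protein, was higher, at 69.4 ± 16.7 against 21.1 ± 16.0 CPM. At 12m Dnajc3 was at 668 against 231 CPM and Dnajb11, a luminal J-domain partner of BiP, at 3.88 against 65.7 CPM. For each of these the oocytes of the groups did not overlap, which was a condition of naming a pathway gene and is no result.

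Of 19 other disulfide enzymes, 9 were lower and 1 higher past the limit at 6wk (39.3% and 16.7% of all measured genes). At 12m 12 were lower and 1 higher (39.0% and 16.1%). Vkorc1, the vitamin K epoxide reductase, was at 39.3 against 749 CPM and Txndc12 at 2.71 against 63.4 CPM at 6wk. Erp29 was at 16.2 against 212 CPM at 12m. Pdia5 stood apart from them, at 70.9 against 39.7 CPM at 6wk (0.81) and 93.3 against 29.2 CPM at 12m (1.71). Of 15 genes of the calnexin cycle and glycan transfer, 6 were lower and 3 higher at 6wk, and 6 lower and 2 higher at 12m. Dad1, an oligosaccharyltransferase subunit, was at 24.9 against 447 CPM at 6wk. Lman1, a lectin that carries glycoproteins from the ER, was higher, at 115 against 32.4 CPM.

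The 16 measured sensors and eIF2 alpha regulators had a median above 0, 0.39 at 6wk and 0.21 at 12m. At 6wk 2 were lower and 2 higher past the limit (39.3% and 16.7% of all measured genes), and at 12m 5 and 4 (39.0% and 16.1%). Rtcb, the ligase that joins spliced Xbp1 mRNA, was at 10.9 against 104 CPM at 6wk and 14.1 against 58.3 CPM at 12m. Creb3l4, an ER-bound transcription factor, was higher at 12m, at 350.4 against 150.3 CPM. Of 20 targets of ATF4 and CHOP, 8 were lower and 3 higher at 6wk, and 11 lower and 2 higher at 12m. Ddit3, which encodes CHOP, was at 3.25 ± 2.95 against 104 ± 13.2 CPM at 6wk and 11.9 against 144 CPM at 12m. Phgdh, of serine synthesis, was at 0.254 against 66.1 CPM at 6wk. The first value lies under a floor of 0.806 CPM, the level of 3 counts in an average IVM-MII 6wk library. Mthfd2, of mitochondrial folate metabolism, was higher at both ages, at 367 against 152 CPM and 282 against 154 CPM.

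Of 25 genes of ER-associated degradation, 11 were lower and 3 higher at 6wk (39.3% and 16.7% of all measured genes). At 12m 12 were lower and 4 higher (39.0% and 16.1%). Derl3 was at 1.42 against 70.5 CPM at 6wk and Ubxn4, which recruits p97 to the ER, was higher, at 638 against 202 CPM. Of 22 translocon and signal peptide genes, 9 were lower and 4 higher at 6wk, and 8 lower and 2 higher at 12m. Sec61g, a subunit of the channel, was at 12.0 against 202 CPM, while Sec62, a partner of the channel, was at 216 against 69.2 CPM at 6wk. Of 7 measured ER prolyl isomerase and collagen genes, 3 were lower and 1 higher at each age, with Fkbp2 at 2.30 against 88.8 CPM at 6wk.

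Other chaperone families gave a comparison. Of 8 subunits of the cytosolic chaperonin TRiC, 5 were lower and 0 higher past the limit at 6wk, and 6 and 0 at 12m, with medians of −2.37 and −1.37. Of 11 mitochondrial chaperones, 8 and 7 were lower and 0 higher, with medians of −1.45 and −1.35. Of 26 cytosolic chaperones, 9 and 11 were lower and 4 higher at each age, with medians of −0.30 and −0.42. Among all measured genes 39.3% and 39.0% were lower and 16.7% and 16.1% higher at the 2 ages. The difference between these lists and the ER genes was not tested.

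Co-culture and age gave fewer pathway genes past the limit. With co-culture 5 of the 137 were lower and 21 higher at 6wk (5.22% and 16.2% of all measured genes), and 23 lower and 12 higher at 12m (15.2% and 10.3%). Srprb, a signal recognition particle receptor subunit, was at 24.6 against 9.70 CPM with co-culture at 6wk. At 12m Derl2, of ER-associated degradation, was lower, at 14.7 against 32.9 CPM. By age 4 were lower and 22 higher at 12m in GV oocytes (4.28% and 9.46% of all measured genes), 14 and 28 in IVM-MII (9.08% and 18.1%), and 21 and 9 in co-cultured oocytes (15.2% and 7.73%). Dnajb14, a J-domain protein of the ER membrane, was lower at 12m at every stage: 43.6 against 358 CPM in GV, 39.2 against 736 CPM in IVM-MII and 30.1 against 353 CPM in co-cultured oocytes. Qsox1, a sulfhydryl oxidase, was at 46.6 CPM at 12m and 8.47 CPM at 6wk in IVM-MII oocytes, and at 46.4 and 10.4 CPM in co-cultured ones. Rpn2, an oligosaccharyltransferase subunit, was at 55.1 against 17.7 CPM and at 39.8 against 12.3 CPM. The oocytes of the groups did not overlap for these genes, which was again a condition of naming them.

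**Figure D5:**
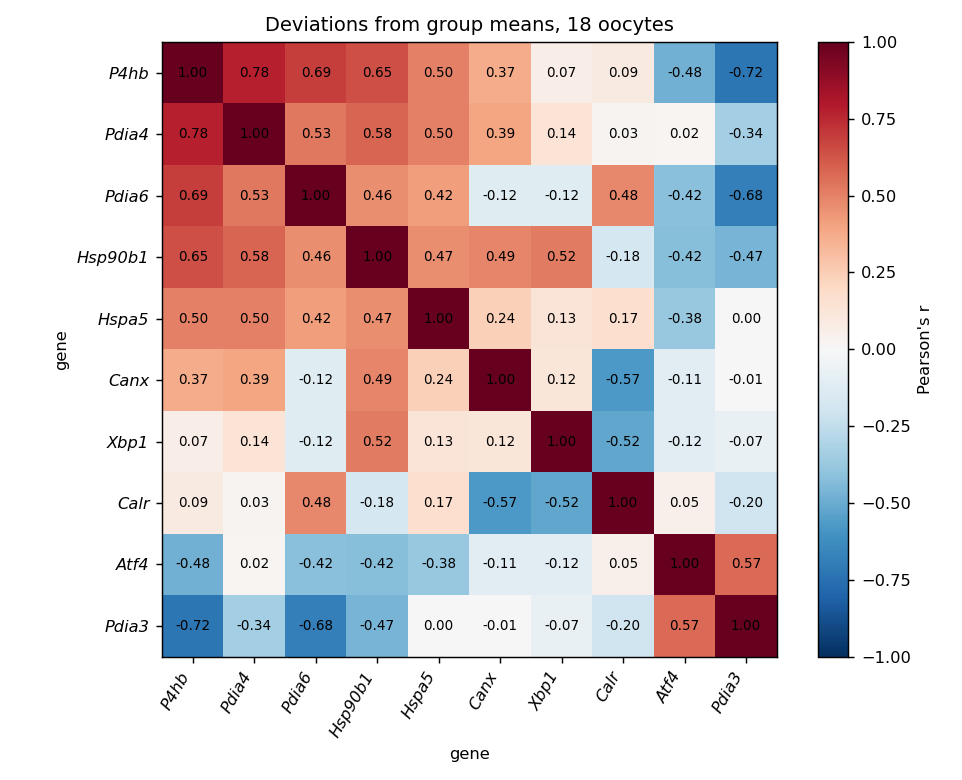
Pearson's r between pairs of the 10 genes (both axes), over 18 oocytes, of the deviations of log2(CPM + 1) from group means. P4hb and Pdia4 have the highest value, 0.78, and P4hb and Pdia3 the lowest, −0.72.

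Within groups the genes varied together only in part. Over the 18 oocytes, the deviations of log2(CPM + 1) from the group means gave Pearson's r from −0.72 to 0.78 over 45 pairs, with a median of 0.07, and 27 pairs were above 0. P4hb went with Pdia4 (0.78), Pdia6 (0.69) and Hsp90b1 (0.65). Pdia3 went against P4hb (−0.72) and Pdia6 (−0.68) and with Atf4 (0.57). Canx went against Calr (−0.57). These points share libraries and depth, the 2 metaphase II oocytes of prefix Y01 are among them, and the values are a description. Of 4731 genes with a mean of at least 20 CPM, those whose deviations were most like the mean of the 10 genes were Grn (0.93), Gtse1 (0.92), Mat2a (0.89), Zdhhc24 (0.87) and Mier2 (0.86).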

How the data were processed

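The files held 1 table of genes per oocyte. The estimated counts, which need not be whole, and the TPM were deposited by the authors, per the file headers, with a mean transcript length per gene. The builds mm10 and GRCm38.p5 and the tools TopHat2 2.1.1, Cufflinks, Trim Galore 0.4.5 and FastQC 0.11.8 are named per the submitters' processing notes; the tool that made the counts is not given in the sources used here. Reads that fit several genes were split between them in such counts, and reads of overlapping genes on opposite strands cannot be told apart where strand is not kept. Estimated counts were rounded, filtered by group with edgeR's filterByExpr (12037 of 47069 genes kept) and scaled by TMM (edgeR 4.0.16, R 4.3.3). All 10 genes were kept, Xbp1 through GV oocytes alone (12m oocytes 1 and 3 and 6wk oocyte 2). Symbols were matched to 46488 IDs. Later steps used Python 3.11.15, pandas 2.3.3, SciPy 1.17.1 and Matplotlib 3.10.9. Differences used a pseudocount of 1 CPM and a limit of 1. Other ER genes were named by rule: up to 2 each way per list and comparison, with the largest differences among genes whose higher group averaged 20 CPM or more, with no overlap of oocytes; Derl3 and Dnajc3 are also given beside the promoters, and Dnajb14, Rpn2 and Qsox1 beside age. No 2 libraries were near-identical: the lowest chi-square per gene over 153 pairs was 22.1. The intervals and SDs cover counting error and the spread of oocytes only. Scripts were tested on simulated data. The 10 genes, the lists and the motifs were chosen with earlier results of these data known. Alternatives were 3 other scalings, TPM, 2 other pseudocounts, no filter, values within title prefixes and leaving out each oocyte.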

Additional observations from a re-analysis of the deposited data

How the results depend on the processing

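The labels name no animal, so values describe 3 oocytes a group, and age cannot be told apart from title prefix. Of 760 differences of single genes recomputed under 8 processing alternatives, 0 of those past the limit changed sign and 10 moved by 1 SD or more. The medians of the 10 genes given here include Xbp1, with its limit of the filter. The median of the 10 genes for co-cultured against GV oocytes at 12m was −0.59 with TPM against −1.01, and the cause was not tested. Leaving out each oocyte in turn, that median ran from −1.31 to −0.54, and the median for IVM-MII against GV at 12m from −0.60 to 0.64, the last without IVM-MII oocyte 1. The other medians ran from −1.25 to −0.60 (IVM-MII against GV, 6wk), −0.75 to −0.17 (co-cultured against GV, 6wk), −0.083 to 0.71 and −0.42 to −0.033 (co-culture, 6wk and 12m). By age they ran from −0.53 to −0.20 in GV, 0.035 to 0.47 in IVM-MII and −0.70 to 0.12 in co-cultured oocytes. Of 600 such differences of single genes 2 of those past the limit reversed: P4hb for co-culture at 12m, −0.075 without IVM-MII oocyte 1 in a range up to 1.90, and P4hb for co-cultured 12m against IVM-MII 6wk, 0.26 without IVM-MII 6wk oocyte 1 in a range from −2.18. That oocyte is also the one removed there by leaving out the metaphase II oocytes of prefix Y01, an alternative chosen after seeing the data. With TPM the median of all genes moved by 0.29 for co-cultured against GV at 12m, where totals without mitochondrial genes moved it by 0.17 and, for IVM-MII against GV, RLE scaling by −0.16. For co-culture at 12m 40.4% of all genes past the limit were higher by CPM and 50.7% by TPM. No paired analysis was possible because the oocyte numbers are only names and mark no shared animal, culture or day; values within the title prefixes that 2 groups share, which the labels do not explain, stand beside the results they move.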
